A study of Mus musculus with 12 samples.

Results

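Interferon-stimulated genes are switched on when a cell binds interferon, and 44 of them were followed here in the livers of 12 mice. They were chosen by name from the gene table of the study, which lists 24532 genes, and all 44 were found and passed the filter on low counts. By role they comprised 4 regulators of transcription, 4 sensors of foreign nucleic acid, 28 antiviral effectors, 5 GTPases that respond mainly to interferon gamma and 3 genes of antigen processing. The livers formed 4 groups of 3, crossing 2 genotypes with 2 liquid diets that were fed for 5 weeks. All mice were males of a C57BL/6 background, aged 10 to 12 weeks at the start, and all carried the floxed allele *Ahr* fl/fl, in which loxP sites flank exon 2 of the aryl hydrocarbon receptor gene. *Ahr* HKO mice also carried *Alb-Cre*, which is driven by the albumin promoter and deletes the receptor in hepatocytes, so that Kupffer cells and other liver cells kept it. WT mice were littermates without Cre. The Lieber-DeCarli ethanol diet held 5% ethanol by volume, which supplied 36% of the calories, and the control diet was its match without ethanol (con). RNA of whole liver was sequenced, and in such samples fewer cells of a type and less RNA per cell cannot be told apart.

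Type I interferons (alpha and beta) bind a receptor whose kinases activate STAT2. With IRF9 it forms part of ISGF3, a complex that binds the interferon-stimulated response element (ISRE) in the promoters of antiviral genes. Interferon gamma, made by T cells and natural killer cells, uses another receptor and acts through the gamma-activated sequence (GAS) to induce guanylate-binding proteins, immunity-related GTPases and the immunoproteasome. In the liver, hepatocytes, Kupffer cells and endothelial cells can all respond to interferon. For the comparison of the arms, STAT2, IRF9, IRF7, the sensors and the effectors were taken as the type I class (35 genes), and the GTPases with antigen processing as the gamma class (8 genes). *Irf1*, a direct target of both kinds of interferon, was kept apart.

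The promoters of the 2 classes were compared for these elements, since genes of both classes moved in the tests that follow. RefSeq promoter windows (GRCm38.p6, 250 bases before to 50 after a start) were found for 32 of the 44 genes, and were scanned on both strands, with overlapping matches allowed. The ISRE core, GAAA repeated after any 2 bases (TTTC on the other strand), was present in 18 of these 32 genes (56.2%), against 3.99% of the 27025 genes with a window. It occurred in 14 of 24 type I genes (58.3%) and in 4 of 7 gamma genes (57.1%), so its share did not separate the classes as defined. Within the gamma class it was found in the GTPase genes *Gbp3*, *Gbp7*, *Igtp* and *Irgm1*. The antigen processing genes *Psmb8*, *Psmb9* and *Tap1* had no match. The windows of *Psmb9* and *Tap1* overlap (chr17:34187281-34187580 and chr17:34187306-34187605), so these genes are not separate cases. The GAS core TTCNNNGAA was present in 5 of 24 type I genes (20.8%) and 3 of 7 gamma genes (42.9%), against 9.55% of genes with a window. The AhR core GCGTG was present in 13 of 32 members (40.6%) and in 35.2% of genes with a window. A match is a description of the letters and not a bound site. The 8 stretches of 60 bases below lie upstream of the start. They show the ISRE core, in capitals, in genes that differed with ethanol in *Ahr* HKO livers in either direction (*Bst2* higher, *Stat2*, *Oas3*, *Trim30a*, *Gbp7* and *Irgm1* lower) and in a pair of type I genes that passed no test, *Ifit1* and *Isg15*. Each is printed 5′ to 3′ in the direction of the gene.
Stat2 (chr10:128270251-128270310, plus strand): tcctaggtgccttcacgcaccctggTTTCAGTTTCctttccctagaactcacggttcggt
Oas3 (chr5:120777700-120777759, minus strand): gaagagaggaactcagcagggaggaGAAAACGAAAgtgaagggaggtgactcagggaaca
Trim30a (chr7:104465195-104465254, minus strand): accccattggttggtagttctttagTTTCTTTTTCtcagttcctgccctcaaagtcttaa
Bst2 (chr8:71537565-71537624, minus strand): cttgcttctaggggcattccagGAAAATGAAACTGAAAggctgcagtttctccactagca
Ifit1 (chr19:34640770-34640829, plus strand): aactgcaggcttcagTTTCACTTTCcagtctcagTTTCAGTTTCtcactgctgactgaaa
Isg15 (chr4:156200856-156200915, minus strand): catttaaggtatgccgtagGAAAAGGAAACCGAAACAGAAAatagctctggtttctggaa
Gbp7 (chr3:142530258-142530317, plus strand): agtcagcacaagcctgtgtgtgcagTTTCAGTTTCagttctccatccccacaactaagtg
Irgm1 (chr11:48871421-48871480, minus strand): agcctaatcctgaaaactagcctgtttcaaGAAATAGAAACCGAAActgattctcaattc

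The libraries held 46306518 to 74336255 counts each. *Ahr* itself was counted over the whole gene and not by exon, so its count cannot check the deletion of exon 2. It was 16.6 to 20.1 counts scaled to equal library size (CPM) in WT and 41.3 to 65.5 in *Ahr* HKO livers on the control diet, and 20.8 to 30.5 and 24.7 to 41.8 on ethanol. *Cyp1a2*, a known target of AhR in hepatocytes, was at 398 to 617 CPM in WT and 90.7 to 258 in *Ahr* HKO livers on the control diet, and at 992 to 1212 and 629 to 684 on ethanol, so that it was lower in *Ahr* HKO livers on both diets without overlap (log2 FC -1.67, adjusted *P* = 0.0197, and -0.73, adjusted *P* = 0.0433, edgeR). The hepatocyte markers *Alb*, *Apoa1*, *Ttr* and *Hnf4a* summed to between 61880 and 103600 CPM in all livers. Most of the sum was *Alb* (47280 to 90560 CPM), and single markers moved in different directions. *Apoa1* had a mean of 11740 CPM in WT livers on the control diet and 5522 on ethanol. On the control diet *Hnf4a* had a mean of 569 CPM in WT and 1111 in *Ahr* HKO livers. Before any test, the WT livers on ethanol stood apart from each other. Replicate 3 was the lowest of its group for 39 of the 44 genes, and replicate 2 was the highest for 32. Among WT control livers replicate 1 was the highest for 32 as well, within a narrower spread. The ratio of the highest to the lowest liver had a median over the members of 1.98 in this group, against 1.35 in WT on the control diet, 1.44 in *Ahr* HKO on the control diet and 1.27 in *Ahr* HKO on ethanol. The extreme was *Rsad2*, which encodes viperin, at 11.9, 9.86 and 2.61 CPM in the 3 WT livers on ethanol. Among WT control livers the widest ratio was that of *Eif2ak2*, at 14.1, 3.18 and 12.6 CPM.

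The members spanned a wide range of levels per length. In WT control livers *Bst2*, which encodes the virion-tethering protein tetherin, was the highest at 167 ± 6.30 FPKM (SD, n = 3), followed by *Ifi27* at 88.6 ± 9.91 and *Iigp1* at 69.8 ± 12.3. The means of *Ifi27* and *Iigp1* differed by less than the sum of their SDs. The lowest were *Mx1* at 0.455 ± 0.0763 and *Oas3* at 0.519 ± 0.191, a pair that did not differ beyond its spread. Some values may not be independent. Reads of *Ifit3* and *Ifit3b*, or of *Oas1a* and *Oas1g*, could fit either gene of the pair. The promoter windows of the pairs shared unbroken runs of 169 and 73 bases, which does not show how alike their transcripts are. The annotated spans of *Ifi27* (chr12:103434189-103440245) and *Ifi27l2a* (chr12:103433873-103443680) overlap. How such reads were assigned is not given in the sources used here.

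On the control diet, *Ahr* HKO livers had less RNA of a set of type I genes than WT livers, led by *Usp18* at a 3.52-fold lower level. Of the 35 type I genes, 9 were lower (25.7%) and 2 were higher (5.71%) at an adjusted *P* value under 0.05 in edgeR. Over all tested genes 14.2% were lower and 15.4% were higher (29.6% in all). Of all 44 members 9 were lower (20.45%) and 3 were higher (6.82%). At an unadjusted *P* value under 0.05 there were 20 of 44 members (45.45%), near the 42.1% of all tested genes. Groups that did not overlap were seen for 16 members that were lower and 3 that were higher, against 24.1% and 23.2% of all tested genes. Of the 8 gamma genes, 1 was higher and none was lower. The median log2 FC was -0.39 for the type I class, -0.07 for the gamma class and 0.00 for all tested genes. Lists of other targets did not show this order of the classes. Of 12 further GTPases of the gamma arm 2 were lower and none was higher (median -0.35, 11 negative), and 28 further type I targets had a median of 0.07.

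Among the sensors, 2 of 3 helicases for viral RNA were lower. *Dhx58* (LGP2) stood at 14.2, 12.3 and 12.02 CPM in WT and at 6.27, 8.46 and 5.26 in *Ahr* HKO control livers. The groups did not overlap, and the log2 FC was -0.94 (SE 0.18, adjusted *P* = 0.00930, edgeR). *Ddx58* (RIG-I) was at 29.3, 25.9 and 27.3 CPM in WT and at 14.2, 20.2 and 14.9 in *Ahr* HKO livers. Every *Ahr* HKO value was again below every WT value, and the log2 FC was -0.74 (SE 0.14, adjusted *P* = 0.00940, edgeR). *Ifih1* (MDA5), the third helicase, was at 29.6, 25.8 and 31.5 CPM against 21.2, 26.2 and 21.6, groups that overlapped and did not pass the test (log2 FC -0.33, adjusted *P* = 0.0788, edgeR). *Zbp1*, a sensor of Z-form nucleic acid, was at 6.90, 6.21 and 7.13 CPM in WT and 12.6, 7.75 and 5.99 in *Ahr* HKO livers and did not pass the test.

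Among the effectors, 7 were lower and 1 was higher. *Usp18*, which encodes the protease that removes ISG15 from proteins and damps the type I receptor, was at 19.0, 10.4 and 9.26 CPM in WT control livers. In *Ahr* HKO control livers it was at 3.56, 3.84 and 3.51, a narrow range far below all WT values (log2 FC -1.82, SE 0.27, adjusted *P* = 0.00387, edgeR). *Oasl1*, a member of the oligoadenylate synthetase family, was at 11.1, 10.2 and 9.63 CPM in WT and 5.91, 6.01 and 5.79 in *Ahr* HKO livers. The spread within each group was small beside the gap, and the log2 FC was -0.80 (SE 0.11, adjusted *P* = 0.00310, edgeR). *Ifit3*, which encodes a cytosolic partner of the RNA-binding protein IFIT1, was at 14.3, 8.34 and 11.9 CPM against 5.80, 6.48 and 6.31. Its log2 FC was -0.89 (SE 0.20, adjusted *P* = 0.0151, edgeR), and that of its near copy *Ifit3b* was -0.98 (adjusted *P* = 0.0239). *Rtp4*, which encodes a receptor-transporting protein induced by interferon, fell as well, with a log2 FC of -0.94 (adjusted *P* = 0.00757). *Ifi27* was lower with a log2 FC of -0.69 (adjusted *P* = 0.00962). *Bst2* was lower by less, at 138, 140 and 129 CPM in WT and 115, 104 and 91.2 in *Ahr* HKO livers (log2 FC -0.39, SE 0.11, adjusted *P* = 0.0353, edgeR). The other effector that passed was *Parp9*, which encodes a mono-ADP-ribosyltransferase that works with DTX3L. It was higher, at 47.4, 48.9 and 45.7 CPM in WT and 55.2, 63.5 and 59.7 in *Ahr* HKO livers (log2 FC 0.33, SE 0.092, adjusted *P* = 0.0322, edgeR).

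A regulator and a GTPase were also higher in *Ahr* HKO control livers. *Stat2*, the subunit that gives ISGF3 its transactivation domain, was at 58.2, 77.0 and 61.0 CPM in WT and 85.2, 103 and 102 in *Ahr* HKO livers. No value overlapped, and the log2 FC was 0.57 (SE 0.14, adjusted *P* = 0.0223, edgeR). *Irgm1*, a GTPase that regulates the other immunity-related GTPases and autophagy, was at 45.8, 44.3 and 41.6 CPM in WT and 74.4, 61.2 and 66.2 in *Ahr* HKO livers (log2 FC 0.62, SE 0.10, adjusted *P* = 0.00557, edgeR). Neither *Irf7*, the regulator that amplifies the type I response (55.3, 36.8 and 38.5 CPM against 45.5, 31.6 and 20.2), nor *Isg15*, the ubiquitin-like modifier (9.10, 6.27 and 7.38 against 8.30, 4.95 and 6.57), passed the test. *Ifit1* was at 7.99, 4.21 and 4.95 CPM in WT and at 2.81, 3.98 and 3.81 in *Ahr* HKO livers, without overlap but with an adjusted *P* value of 0.0939 in edgeR. Without any single library, *Usp18*, *Oasl1*, *Dhx58*, *Ddx58*, *Ifit3*, *Rtp4*, *Ifi27* and *Irgm1* passed in all 6 fits, *Stat2* and *Ifit3b* in 2, and *Bst2* and *Parp9* in 1. All 10 Kupffer cell markers had a positive log2 FC (median 0.46, none past the test), and 3 of 6 tested monocyte and neutrophil markers were higher. Their part in the result was not tested.

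**Figure D1:**
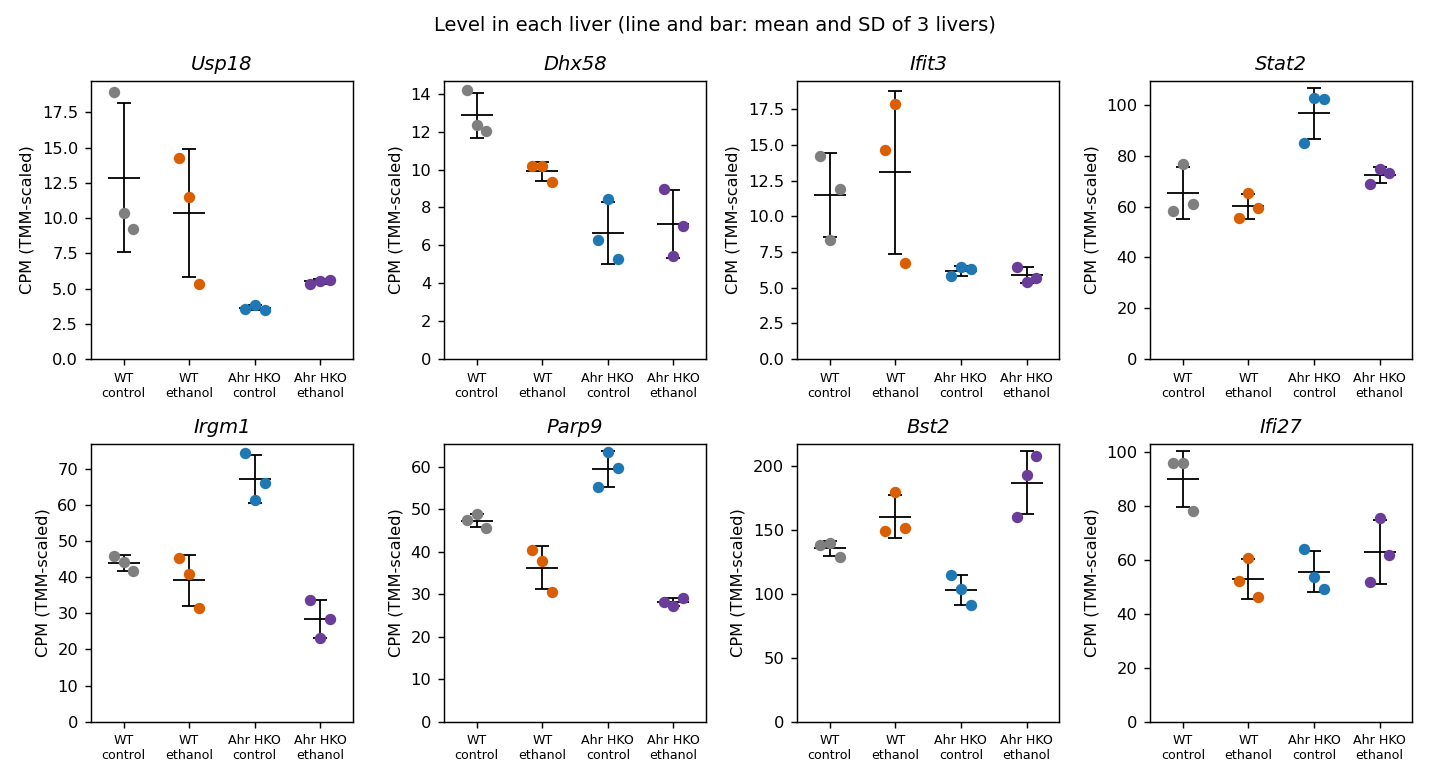
CPM, scaled by TMM factors, of 8 members in each of the 12 livers (points), with the mean and SD of 3 livers as line and bar; each axis starts at 0. *Usp18*, *Dhx58* and *Ifit3* were lower in *Ahr* HKO livers on the control diet, and *Stat2*, *Irgm1* and *Parp9* were higher there. *Bst2* had its highest mean in *Ahr* HKO livers on ethanol, at 160 to 208 CPM. That range overlapped WT livers on ethanol (log2 FC 0.22, adjusted *P* = 0.397, edgeR).

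With ethanol in *Ahr* HKO livers more members were lower than higher. Of the 44 members, 13 were lower (29.55%) and 2 were higher (4.5%) than in *Ahr* HKO livers on the control diet in edgeR. Over all tested genes 15.9% were lower and 14.9% were higher (30.8% in all). At an unadjusted *P* value under 0.05 there were 21 members (47.7%), near the 43.9% of all tested genes. Without overlap, 14 members were lower (31.8%) and 2 were higher, against 25.3% and 24.5% of all tested genes. In the type I class 11 of 35 fell (31.4%) and 2 rose (5.71%), and in the gamma class 2 of 8 fell (25%). The median log2 FC was -0.34 in the type I class, -0.46 in the gamma class and -0.02 over all tested genes. This comparison and the former share the *Ahr* HKO control livers, so that a gene with high values in those livers stands higher in the former and lower here.

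The regulator that fell was *Stat2*, at 85.2, 103 and 102 CPM on the control diet and 68.9, 74.9 and 73.3 on ethanol (log2 FC -0.42, SE 0.11, adjusted *P* = 0.0299, edgeR). *Irf7* was at 45.5, 31.6 and 20.2 CPM on the control diet and at 25, 28.3 and 24.0 on ethanol, within overlapping ranges. Among the sensors, *Ifih1* fell from 21.2, 26.2 and 21.6 CPM to 17.6, 13.9 and 14.5 (log2 FC -0.58, SE 0.13, adjusted *P* = 0.0159, edgeR). All 3 ethanol values lay below the control values. *Zbp1* was at 12.6, 7.75 and 5.99 CPM and then at 5.39, 4.24 and 4.92, which did not overlap and missed the threshold by little (log2 FC -0.86, adjusted *P* = 0.0506, edgeR). *Dhx58* and *Ddx58*, the helicases that were already low in *Ahr* HKO control livers, did not pass the test here, at 8.99, 5.42 and 7.01 CPM and 19.0, 14.0 and 13.01 CPM on ethanol.

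The clearest falls among the effectors were those of 2 ADP-ribosyltransferases. *Parp9* fell from 55.2, 63.5 and 59.7 CPM to 28.1, 27.3 and 29.2, a 2.11-fold difference with little spread (log2 FC -1.08, SE 0.091, adjusted *P* = 0.00138, edgeR). *Parp14* fell from 40.6, 48.3 and 40.3 CPM to 25.1, 21.5 and 21.96 (log2 FC -0.91, SE 0.11, adjusted *P* = 0.00270, edgeR). *Eif2ak2* encodes PKR, the kinase that halts translation on double-stranded RNA. It fell from 13.03, 16 and 13.03 CPM to 9.07, 7.41 and 7.51 (log2 FC -0.81, SE 0.14, adjusted *P* = 0.00675, edgeR). The other effectors that fell were *Trim30a*, *Oas3*, *Oas2*, *Xaf1*, *Herc6* and *Ifi44*, with log2 FCs of -0.51 (*Herc6*) to -1.19 (*Oas3*) and adjusted *P* values of 0.0182 (*Trim30a*) to 0.0497 (*Ifi44*) in edgeR. *Oas3* and *Oas2* encode synthetases of the messenger that activates RNase L. *Oas2* was the one gene of these whose groups overlapped, at 11.1, 8.62 and 5.06 CPM against 2.58, 5.11 and 3.88. *Bst2* and *Usp18* rose. *Bst2* went from 115, 104 and 91.2 CPM to 160, 194 and 208 (log2 FC 0.86, SE 0.14, adjusted *P* = 0.00615, edgeR). *Usp18* went from 3.56, 3.84 and 3.51 CPM to 5.32, 5.56 and 5.64 (log2 FC 0.60, SE 0.13, adjusted *P* = 0.0134, edgeR), and thus stayed below the WT control values of 9.26 to 19.0. *Ifit1* (2.81, 3.98 and 3.81 CPM against 4.24, 3.36 and 3.36) and *Isg15* (8.30, 4.95 and 6.57 against 4.92, 6.08 and 4.53) overlapped between the diets.

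In the gamma class both genes that fell were GTPases. *Irgm1* fell from 74.4, 61.2 and 66.2 CPM to 33.7, 23.1 and 28.5, a 2.37-fold difference (log2 FC -1.24, SE 0.16, adjusted *P* = 0.00298, edgeR). *Gbp7*, a guanylate-binding protein, fell from 10.8, 12.9 and 14.0 CPM to 9.34, 4.72 and 7.22 (log2 FC -0.82, SE 0.25, adjusted *P* = 0.0411, edgeR). *Gbp3* was at 7.37, 3.63 and 3.51 CPM and then at 3.71, 3.01 and 2.98, and *Igtp* (IRGM3) at 21.2, 34.9 and 36.5 and then at 22.6, 26.1 and 27.7, both with overlapping groups. The 5 GTPases all had a negative log2 FC, with a median of -0.62. Among the antigen processing genes, *Psmb8*, a catalytic subunit of the immunoproteasome, was at 38.5, 31.0 and 25.1 CPM on the control diet and 32.9, 33.9 and 36.4 on ethanol. *Psmb9* and the peptide transporter *Tap1* had log2 FCs of 0.26 and -0.34, and none of the 3 genes passed the test. The difference between the GTPases and these genes was not tested.

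The core of the ISRE was found in 7 of the 10 genes that fell and had a promoter window, in 10 of the 21 that passed no test, and in *Bst2*, which rose (no window was found for *Usp18*). *Irgm1*, *Parp9*, *Parp14*, *Eif2ak2* and *Bst2* passed in all 6 fits that left out a library, *Usp18* in 5, *Ifih1* in 4, *Trim30a* and *Oas2* in 2, and *Stat2*, *Oas3*, *Herc6*, *Ifi44*, *Xaf1* and *Gbp7* in 1. The number of members past the test was 15, and it was 7 without replicate 2 of *Ahr* HKO on the control diet. It was 8 without replicate 1 or replicate 2 of *Ahr* HKO on ethanol, and 5 without replicate 3. The median log2 FC of the type I class was -0.21 without replicate 1 of *Ahr* HKO on the control diet.

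Markers of several liver cell types were lower in the same livers. All 10 Kupffer cell markers were lower with ethanol in *Ahr* HKO livers, among them *Timd4* (log2 FC -2.04, adjusted *P* = 0.00714, edgeR), *Adgre1* (-2.07, adjusted *P* = 0.0108), *Marco* and *Cd5l*. The summed level of the 10 genes was 290 to 357 CPM in *Ahr* HKO livers on ethanol and 445 to 1216 in *Ahr* HKO livers on the control diet. It was 493 to 643 in WT control livers and 453 to 1097 in WT livers on ethanol. No Kupffer cell marker was at 0 in a group, and *Clec4f*, which among liver cells defines Kupffer cells, was at 65.0 to 78.9 CPM in *Ahr* HKO livers on ethanol and 91.8 to 176 on the control diet. The neutrophil marker *Ly6g* was at or near 0 in every group (0 to 6 counts per library). Of 6 tested monocyte and neutrophil markers 4 were lower (summed level of the list 31.5 to 40.1 against 66.7 to 177 CPM). Of 5 endothelial markers 2 were lower, *Pecam1* (log2 FC -0.74, adjusted *P* = 0.00729, edgeR) and *Stab2* (-0.75, adjusted *P* = 0.0162), and all 5 had a negative value (median -0.74). Their summed level was 146 to 164 CPM on ethanol and 208 to 231 on the control diet. Of 10 tested lymphocyte markers 1 was lower, *Ptprc*, below the 15.9% of all tested genes (summed level of the list 7.13 to 10.4 against 12.6 to 26.9 CPM). The part of these cells in the falls of the members was not tested.

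**Figure D2:**
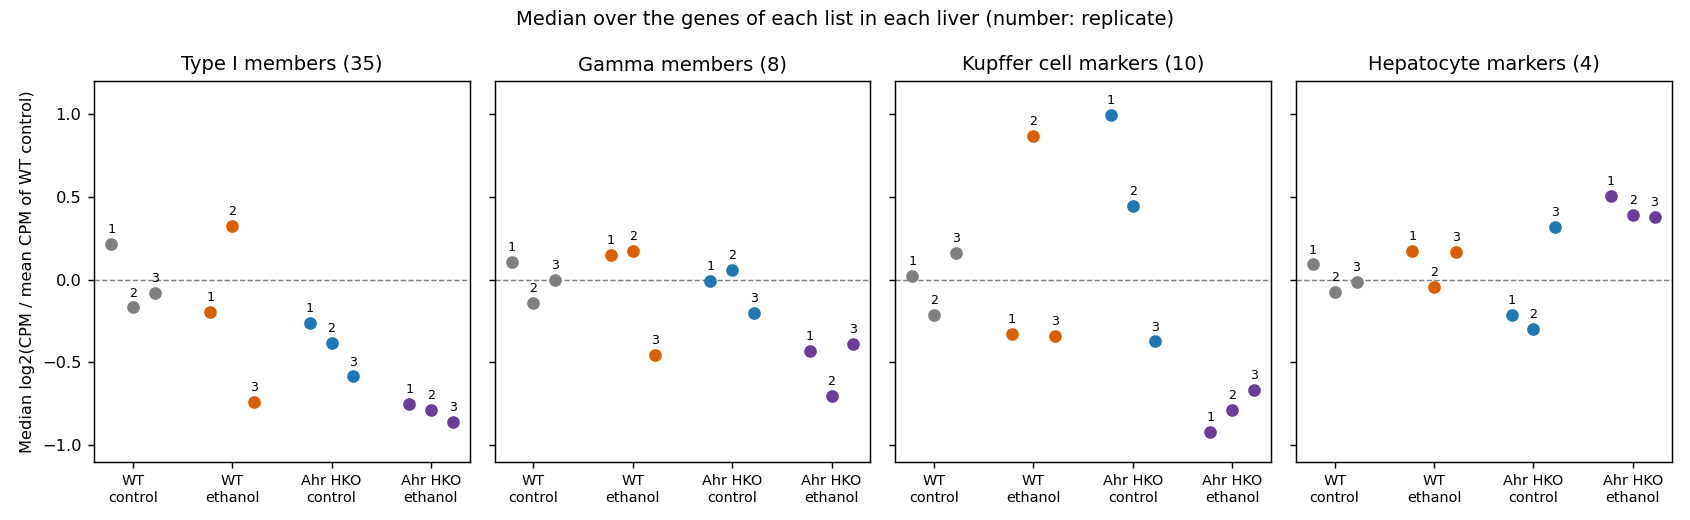
Median over the genes of a list of the log2 ratio of CPM to the mean of the WT control livers, 1 point per liver, numbered by replicate, for the type I class, the gamma class, Kupffer cell markers and hepatocyte markers. In *Ahr* HKO livers on ethanol the type I class was at -0.86 to -0.75, the Kupffer cell markers at -0.92 to -0.67 and the hepatocyte markers at 0.38 to 0.51. Among the hepatocyte markers *Apoa1* had a lower mean there than in WT control livers (9041 against 11740 CPM). *Alb* (75390 against 56160) and *Hnf4a* (980 against 569) had higher means. In *Ahr* HKO livers on the control diet the type I class was at -0.58 to -0.26 and the Kupffer cell markers at -0.37 to 0.99. The WT livers on ethanol were spread from -0.74 to 0.33 for the type I class.

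With ethanol in WT livers a single member passed the test, *Ifi27*, a type I gene, which was lower. Failing the test does not show that a member was unchanged, because the spread of the livers was wide. *Rsad2*, for example, had a log2 FC of 0.66 with an SE of 0.58. Over all tested genes 4.63% were lower and 4.84% were higher (9.47% in all). At an unadjusted *P* value under 0.05 there were 5 members (11.4%), against 26.4% of all tested genes. Without overlap, 5 members were lower and 1 was higher, against 16.6% and 16.2% of all tested genes. The median log2 FC was -0.14 in the type I class, 0.01 in the gamma class and 0.03 over all tested genes. *Ifi27*, named here for this result after its values were seen, encodes a mitochondrial protein of the ISG12 family. It was at 96.0, 96.1 and 78.1 CPM on the control diet and at 52.1, 60.8 and 46.1 on ethanol, without overlap (log2 FC -0.75, SE 0.14, adjusted *P* = 0.0221, edgeR). It did not pass without replicate 1 or 2 of WT on the control diet or replicate 3 of WT on ethanol, which left no member past the test, and 2 members passed without replicate 1 or replicate 2 of WT on ethanol.

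The wide spread among WT livers on ethanol bore on the rest. *Ifit1* was at 9.38, 9.54 and 3.06 CPM on ethanol, above and below the control values of 7.99, 4.21 and 4.95. *Isg15* (8.46, 10.1 and 4.54), *Irf7* (31.7, 57.7 and 28.6), *Gbp3* (9.04, 14.3 and 5.49) and *Igtp* (59.3, 52.0 and 27.5) showed the same low value of replicate 3. *Psmb8* was at 38.0, 44.3 and 29.1 CPM on ethanol, with the same library lowest, against 29.0, 32.4 and 38.3 on the control diet. *Stat2* varied less, at 55.4, 65.4 and 59.6 CPM, and so did the helicases *Dhx58* (10.2, 10.2 and 9.35) and *Ifih1* (23.6, 19.4 and 16.4). *Ifih1* was below all control values at a log2 FC of -0.54, which missed the threshold in edgeR (adjusted *P* = 0.0661) and passed in DESeq2 (adjusted *P* = 0.0157). The summed level of the Kupffer cell markers was 479, 1097 and 453 CPM in replicates 1, 2 and 3, and that of the type I class 636, 759 and 530 CPM, so that replicate 2 was the highest and replicate 3 the lowest in both. The part of the macrophages was not tested.

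On the ethanol diet the members leaned towards lower values in *Ahr* HKO than in WT livers, and none passed the test. In edgeR 0 of 44 had an adjusted *P* value under 0.05, where 0.712% of all tested genes were higher and 0.392% were lower (1.10% in all). At an unadjusted *P* value under 0.05 there were 24 of 44 members (54.55%), against 21.0% of all tested genes. A negative log2 FC was seen for 40 of the 44, and 16 were lower without overlap, against 14.2% of all tested genes. DESeq2 called 8 of 44 members, all lower, and over all tested genes it called 5.68% lower and 5.09% higher. The median log2 FC was -0.76 in the type I class (31 of 35 negative), -0.33 in the gamma class (8 of 8 negative) and -0.01 over all tested genes.

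The lowest log2 FC was that of *Gbp3*, -1.58 (SE 0.34, adjusted *P* = 0.0779, edgeR), at 9.04, 14.3 and 5.49 CPM in WT and 3.71, 3.01 and 2.98 in *Ahr* HKO livers. The type I gene *Ifit2* followed with -1.36 (adjusted *P* = 0.131), then *Ifi44* with -1.24 (adjusted *P* = 0.208). *Usp18* was at 14.3, 11.5 and 5.35 CPM in WT and 5.32, 5.56 and 5.64 in *Ahr* HKO livers on ethanol, so that the third WT liver lay within the *Ahr* HKO range. *Ifit3* was at 14.7, 17.8 and 6.72 CPM in WT, against 6.48, 5.39 and 5.70. *Eif2ak2*, whose 3 WT values were close (11.9, 12.5 and 11.6 CPM), stood at 9.07, 7.41 and 7.51 in *Ahr* HKO livers (log2 FC -0.58, SE 0.12, adjusted *P* = 0.0719, edgeR). *Parp14* (35.6, 46.2 and 25.3 CPM against 25.1, 21.5 and 21.96) and *Irgm1* (45.3, 40.8 and 31.4 against 33.7, 23.1 and 28.5) leaned the same way. Only *Stat2*, *Ifi27*, *Bst2* and *Mx2* had a positive value. *Stat2* was higher in each *Ahr* HKO liver (68.9, 74.9 and 73.3 CPM) than in any WT liver (55.4, 65.4 and 59.6), with an adjusted *P* value of 0.207 in edgeR. Without replicate 3 of WT on ethanol, 6 members passed, all lower: *Gbp3*, *Ifit1*, *Ifit3*, *Igtp*, *Rsad2* and *Usp18*. All 10 Kupffer cell markers had a negative log2 FC here as well (median -0.93, none past the test), and their part was not tested.

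**Figure D3:**
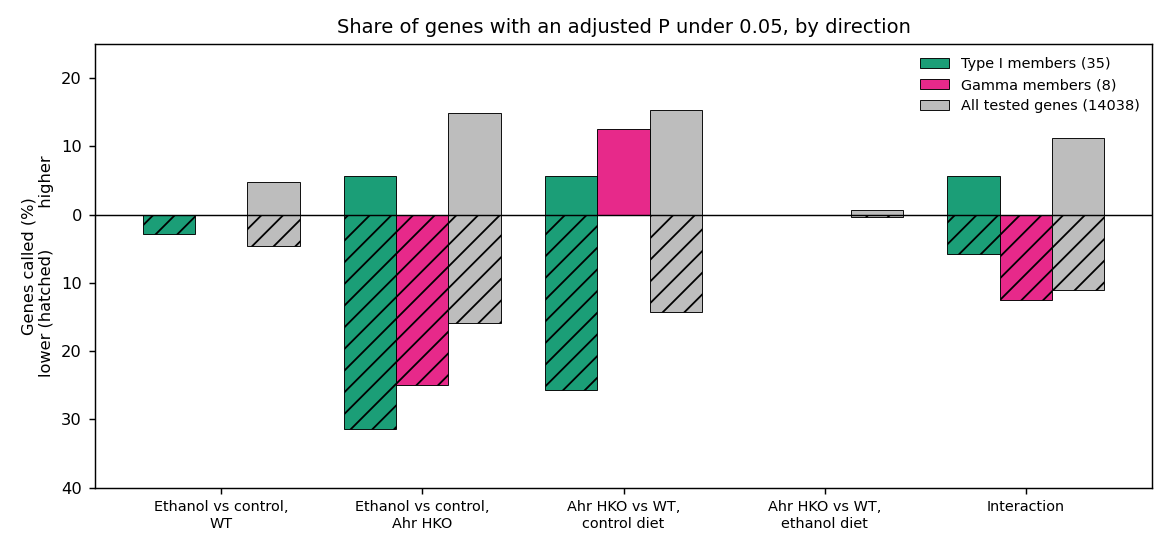
Percentage of genes past the threshold (adjusted *P* value under 0.05) for all 5 tests, upwards for higher and downwards (hatched) for lower, for the type I class, the gamma class and all tested genes. The type I class had its longest bars downwards, 31.4% with ethanol in *Ahr* HKO livers and 25.7% for the genotypes on the control diet, against 15.9% and 14.2% of all tested genes.

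Whether ethanol acted differently in the 2 genotypes was tested by the interaction over all 12 libraries. Of the 44 members, 2 had a higher and 3 a lower ethanol difference in *Ahr* HKO than in WT livers, where 11.2% and 11.1% of all tested genes did (22.3% in all). At an unadjusted *P* value under 0.05 there were 8 members (18.2%), against 36.4% of all tested genes. *Irgm1* had an interaction log2 FC of -1.08 (SE 0.22, adjusted *P* = 0.00657, edgeR). Its ethanol log2 FC was -0.15 in WT and -1.24 in *Ahr* HKO livers. *Parp9* had an interaction of -0.69 (SE 0.15, adjusted *P* = 0.00773, edgeR), with ethanol log2 FCs of -0.37 and -1.08. For both genes the *Ahr* HKO control livers were the highest group and the *Ahr* HKO livers on ethanol the lowest, at means of 67.3 and 28.4 CPM for *Irgm1* and 59.5 and 28.2 CPM for *Parp9*. *Zbp1* had an interaction of -1.14 (SE 0.37, adjusted *P* = 0.0473, edgeR), and its WT values on ethanol were 8.51, 10.3 and 5.83 CPM.

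The 2 members with a positive interaction differed in form. *Ifi27* had a value of 0.94 (SE 0.23, adjusted *P* = 0.0137, edgeR), since it fell with ethanol in WT livers and had values of 64.1, 53.9 and 49.1 CPM on the control diet and 51.8, 75.5 and 61.8 on ethanol in *Ahr* HKO livers. *Bst2* had a value of 0.62 (SE 0.18, adjusted *P* = 0.0284, edgeR), with 150, 180 and 152 CPM in WT livers on ethanol. Without any single library *Irgm1*, *Parp9* and *Ifi27* passed in all 12 fits, *Bst2* in 5 and *Zbp1* in 2. *Eif2ak2* (interaction -1.08, adjusted *P* = 0.174) passed without replicate 2 of WT on the control diet (log2 FC -0.66, adjusted *P* = 0.0376), the liver at 3.18 CPM. All 10 Kupffer cell markers had a negative interaction value, past the test for 7, and all 6 tested monocyte and neutrophil markers were past it with a negative value. Their part was not tested.

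**Figure D4:**
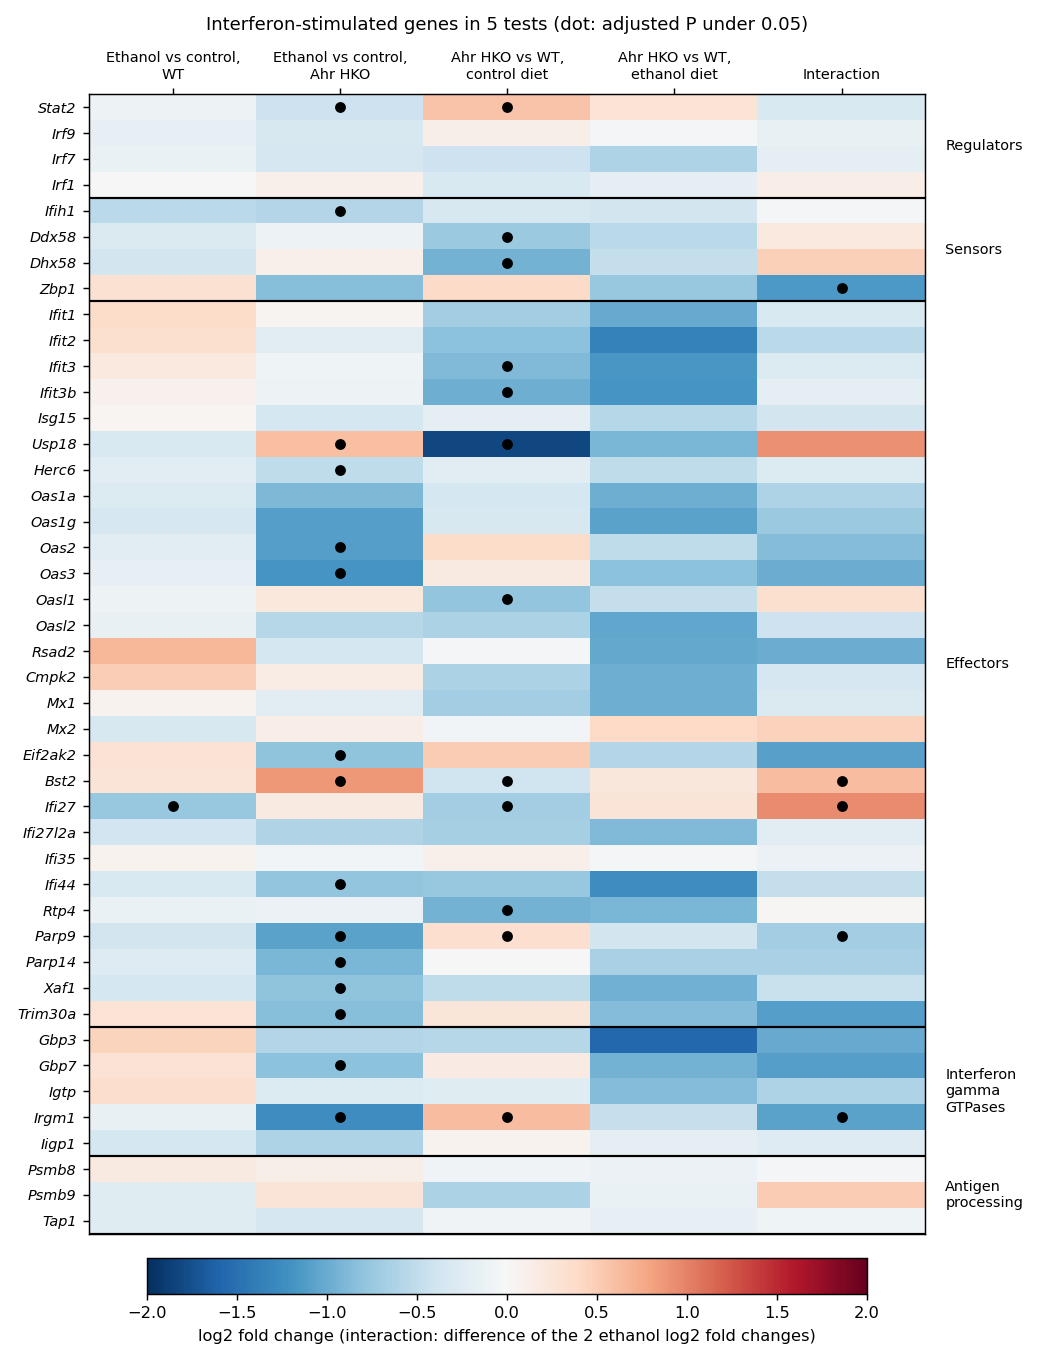
The log2 FC of the 44 members (rows, by role) in the 4 pairs of groups and the interaction (columns) from edgeR; red is higher, blue is lower and a dot marks an adjusted *P* value under 0.05. The dots lie in the columns for ethanol in *Ahr* HKO livers (15) and for the genotypes on the control diet (12), with 1 for ethanol in WT livers, 5 for the interaction and none for the genotypes on ethanol.

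The arms of the pathway around the members were followed with lists of other genes. The interferon genes themselves were at the limit of detection. *Ifna1*, *Ifna2*, *Ifna4*, *Ifna5*, *Ifne*, *Ifnk*, *Ifnl2* and *Ifnl3* had 0 counts in every library, where 3 counts correspond to 0.0404 to 0.0648 CPM by counting error alone. *Ifnb1* reached 3 counts at most, and *Ifng* 4. These levels do not allow a comparison of groups.

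Among 10 genes of receptors and kinases, 5 fell with ethanol in *Ahr* HKO livers and none rose, where 15.9% of all tested genes fell and 14.9% rose, a background that holds for each list that follows in this comparison. They included *Jak1*, the kinase shared by both receptors (159, 172 and 188 CPM to 104, 99.6 and 104; log2 FC -0.76, SE 0.11, adjusted *P* = 0.00406, edgeR) and *Ifngr2* and *Ifngr1*, the chains of the gamma receptor (-0.92 and -0.64). *Jak1* (log2 FC 0.48) and *Ifngr1* (0.38) were higher and *Tyk2*, a kinase of the type I receptor, was lower (-0.65, adjusted *P* = 0.00651) in *Ahr* HKO than in WT livers on the control diet. In WT livers on ethanol *Tyk2* alone passed, with a log2 FC of -0.38. Over all tested genes 29.6% passed between the genotypes on the control diet and 9.47% with ethanol in WT livers. No gene of this list passed between the genotypes on ethanol. Upstream of interferon, 9 of 13 genes that sense microbes or relay the signal fell and 1 rose with ethanol in *Ahr* HKO livers. *Tlr7*, an endosomal receptor for single-stranded RNA, had the lowest adjusted *P* value (log2 FC -1.59, adjusted *P* = 0.00727, edgeR), followed by the transcription factor gene *Irf8* (-0.97) and the adaptors of Toll-like receptors *Ticam1* (-0.67) and *Myd88* (-0.996). Several of these genes, such as *Tlr7* and *Irf8*, are also expressed by macrophages, whose markers fell in the same livers. The part of macrophages in the falls of this list was not tested.

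Of 28 tested further type I targets 11 fell and none rose with ethanol in *Ahr* HKO livers, with a median log2 FC of -0.55. *Dtx3l*, the ubiquitin ligase partner of PARP9, fell by 1.11 on the log2 scale (SE 0.12, adjusted *P* = 0.00202, edgeR), from 56.1, 73.7 and 65.0 CPM to 29.7, 29.4 and 31.3. *Pnpt1*, *Trim25* and *Parp10* fell too (log2 FC -0.72, -0.84 and -0.58). In WT livers 2 of the 28 were lower with ethanol (7.14%), against 4.63% of all tested genes. Between the genotypes on the control diet 3 were higher and 3 lower (10.7% each), below the 15.4% and 14.2% of all tested genes. On ethanol none passed between the genotypes. Of 12 further GTPases of the gamma arm 3 fell with ethanol in *Ahr* HKO livers: *Ifi47* (-0.84), *Tgtp1* (-1.18) and *Gbp2* (-1.23). *Gbp2* was at 8.72, 3.63 and 5.28 CPM and then at 2.88, 2.53 and 2.097, against 10.7, 14.1 and 2.93 in WT livers on ethanol. On ethanol all 12 had a negative log2 FC between *Ahr* HKO and WT (median -1.36), without a gene past the test.

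Of 17 genes of MHC class I antigen presentation besides the members, 3 rose (17.6%) and 1 fell with ethanol in *Ahr* HKO livers, and the share that rose was near the 14.9% of all tested genes. *Psme1* and *Psme2*, the subunits of the proteasome activator PA28, rose by log2 FCs of 0.66 and 0.39, and *B2m*, the invariant chain of class I molecules, rose by 0.42 (adjusted *P* = 0.0463, edgeR). *Nlrc5*, the class I transactivator, fell by 0.65 on the log2 scale (adjusted *P* = 0.0171). In WT livers *Psme1* (0.38) and *H2-Q6* (0.66) rose with ethanol and *Nlrc5* fell by 0.51 on the log2 scale. The share that rose was 11.8%, against 4.84% of all tested genes. Of the 17 genes 15 had a positive log2 FC in WT livers and 2 a negative one. Without overlap 8 were higher and 1 was lower, against 16.2% and 16.6% of all tested genes. Ethanol thus had the same sign for *Psme1* and *Nlrc5* in both genotypes, whose livers are not shared between these tests.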

How the data were processed

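Poly(A) RNA of 12 mouse livers was sequenced from stranded libraries in paired reads of 100 bases. The authors deposited a count, an FPKM and a TPM value per gene and library. The deposited counts carry no normalization, FPKM were scaled by the authors to gene length and library size, and the deposited TPM were not used in any test. The submitters' processing notes name FastQC 0.11.7, Trimmomatic 0.38, HISAT2 2.1.0, Bowtie2 2.3.4.1, StringTie 1.3.4d and the build mm10; whether counting used strand is not given in the sources used here.

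Groups were taken from the labels, which name separate livers. Counts were tested with edgeR 4.0.16 in R 4.3.3 (quasi-likelihood test, TMM scaling, filterByExpr over 4 groups, 14038 genes kept). Each pair of groups was fitted with its 6 libraries and the interaction with all 12. Adjustment followed Benjamini and Hochberg over all tested genes. A call needed an adjusted *P* value under 0.05 and no minimum FC. SE were derived from the edgeR test, as the absolute log2 FC divided by the square root of the F statistic. CPM were scaled by TMM factors. Levels were compared between genes only as FPKM. The scripts were tested on simulated data in which 200 genes changed 4-fold, and 75% (interaction) to 84% (ethanol in WT livers) of these were recovered. The differences of all members were below 4-fold, and changes of that size were not simulated. Depth was 46306518 to 74336255 counts per library, and no pair of libraries was identical. Replicates differed by a mean chi-square of 68 to 310 per gene, so on this mean the spread between livers exceeded counting error. The mean is weighted to genes of high count and does not show this for members of low count. *Oas1g*, for example, had 64, 72 and 56 counts in *Ahr* HKO livers on ethanol (SD 8).

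The members, the lists and the markers were chosen with earlier results of these data known, and no list was tested as a set. Values in every library were given for *Stat2*, *Irf7*, *Ifit1*, *Isg15*, *Ifih1*, *Gbp3*, *Igtp* and *Psmb8* and for at most 6 called members per role group by smallest adjusted *P* value; *Ifit3*, *Ifi27*, *Oas2* and *Rsad2* were added after their values were seen. At most 4 called genes per other list and comparison were named, and *Clec4f*, *Jak1*, *Dtx3l*, *Gbp2* and *Socs3* were followed further after their values were seen. Gene positions (44 of 44 matched by Entrez identifier) and promoter sequences are those of RefSeq for GRCm38.p6. Alternatives were DESeq2 1.42.0, upper-quartile scaling, other filters on low counts, a single fit of 12 libraries, the replicate number as a block, limma 3.58.1 on log2(FPKM + 1), the same after quantile normalization, limma on log2(FPKM + 0.1), other thresholds and leaving out each library. Figures were drawn with matplotlib 3.10.9.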

Additional observations from a re-analysis of the deposited data

Results flagged for a closer look

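For 5 members the ethanol difference differed between the genotypes by the interaction test of edgeR over 12 libraries. The difference of the log2 FCs (*Ahr* HKO minus WT) was -1.08 for *Irgm1*, -0.69 for *Parp9*, -1.14 for *Zbp1*, 0.94 for *Ifi27* and 0.62 for *Bst2*. Over all tested genes 22.3% passed this test.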

How the results depend on the processing

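No value changed sign while past the threshold. With ethanol in WT livers, DESeq2 called 2 members and the fit of all 12 libraries 3, against 1. Between the genotypes on ethanol, where edgeR called 0, DESeq2 called 8, the fit of all 12 libraries 2, limma on log2(FPKM + 1) or log2(FPKM + 0.1) 1 each, and a threshold of 0.25 on adjusted *P* values plus an FC over 1.5 gave 18, all lower. For the interaction (5 members), limma called 2 on log2(FPKM + 1), 3 after quantile normalization and 3 on log2(FPKM + 0.1). The gamma median for ethanol in *Ahr* HKO livers was -0.25 on quantile-normalized FPKM. The causes were not tested. Leaving out each library gave 0 to 2 members for ethanol in WT livers, 5 to 17 in *Ahr* HKO livers, 8 to 15 for the genotypes on the control diet, 0 to 6 on ethanol and 3 to 6 for the interaction. The corresponding medians were -0.38 to 0.04 (type I) and -0.09 to 0.16 (gamma) for ethanol in WT livers, -0.43 to -0.21 and -0.47 to -0.38 in *Ahr* HKO livers, -0.54 to -0.29 and -0.14 to 0.01 on the control diet, and -0.96 to -0.44 and -0.47 to -0.24 on ethanol. The interaction gave 3 members without replicate 1 of WT on either diet, or without replicate 2 or 3 of *Ahr* HKO on ethanol.

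Replicate numbers did not pair the livers: the correlation of same-numbered deviations ran from -0.09 to 0.18. With the replicate number as a block, 9 members passed for ethanol in *Ahr* HKO livers in place of 15. The block gave 9 in place of 12 for the genotypes on the control diet, 4 in place of 5 for the interaction, 1 for ethanol in WT livers and 0 on ethanol. FPKM without quantile normalization moved the median of all genes by up to 0.16 (ethanol in WT livers), -0.21 (genotypes on ethanol) and -0.24 (interaction), and the calls over all genes from 679 higher and 650 lower to 1498 and 385, from 100 and 55 to 71 and 311, and from 1576 and 1561 to 806 and 2640. DESeq2 gave 714 higher and 797 lower between the genotypes on ethanol. With 3 livers per group, the spread of the WT livers on ethanol limits the comparisons that use them.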

Other observations

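Genes of MHC class II, which present antigen on macrophages, dendritic cells and B cells and are induced by interferon gamma, had opposite signs in the 2 genotypes. All 7 had a positive log2 FC with ethanol in WT livers (median 0.79) and all 7 a negative one in *Ahr* HKO livers (median -1.21), none past the test of edgeR in either. The interaction passed for 4 of them (*H2-Aa*, *Cd74*, *H2-Ab1* and *H2-Eb1*), with a value of -2.13 for *H2-Aa* (SE 0.67, adjusted *P* = 0.0423, edgeR). *H2-Aa* was at 22.7, 16.6 and 34.5 CPM in WT control livers, 41.6, 70.3 and 26.9 in WT livers on ethanol, 79.1, 23.5 and 25.4 in *Ahr* HKO control livers and 18.3, 21.0 and 15.9 in *Ahr* HKO livers on ethanol. The highest values were those of replicate 2 of WT on ethanol and replicate 1 of *Ahr* HKO on the control diet, which also had the highest summed Kupffer cell markers of their groups (1097 and 1216 CPM).

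The chemokine *Cxcl10*, induced by both kinds of interferon, was lower in *Ahr* HKO than in WT livers on the control diet (log2 FC -1.23, SE 0.37, adjusted *P* = 0.0434, edgeR) and rose with ethanol in *Ahr* HKO livers (1.49, SE 0.28, adjusted *P* = 0.00960, edgeR). It was at 2.69, 1.13 and 1.84 CPM in WT control livers and at 18.1, 15.3 and 1.82 in WT livers on ethanol, where replicate 3 again stood apart and the test was not passed (log2 FC 2.66, adjusted *P* = 0.0780, edgeR). In *Ahr* HKO livers it was at 0.833, 0.955 and 0.605 CPM on the control diet and at 1.91, 2.87 and 1.94 on ethanol. Its interaction did not pass (-1.16, adjusted *P* = 0.384, edgeR).

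Of 9 negative regulators of the pathway, 2 were higher (22.2%) in *Ahr* HKO than in WT livers on the control diet, against 15.4% of all tested genes. They were *Socs3*, which blocks JAK kinases (log2 FC 1.56, adjusted *P* = 0.0395, edgeR), and the phosphatase gene *Ptpn2* (0.96, adjusted *P* = 0.0142). *Socs3* was uneven within groups, at 17.0, 37.9 and 11.7 CPM in WT control livers. In *Ahr* HKO livers it was at 41.4, 65.1 and 90.0 CPM on the control diet and 11.5, 29.6 and 13.4 on ethanol. With ethanol in *Ahr* HKO livers 2 of the 9 were lower (22.2%), against 15.9% of all tested genes. They were *Socs3* (-1.85, adjusted *P* = 0.0172, edgeR) and *Adar*, the editor of double-stranded RNA (-0.61, adjusted *P* = 0.0128). These tests share the *Ahr* HKO control livers.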
